A study of Mus musculus with 6 samples.

Results

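The genes described here code for subunits of the Polycomb repressive complexes PRC1 and PRC2, for Trithorax-group and CHD chromatin proteins, and for the BAF and PBAF remodelling complexes. They were taken from a list of 45 mouse symbols, and a gene's probes were those whose RefSeq mRNA accession in the scanner files maps to its symbol. Probes were matched for 43 of the 45 genes (66 probes), and 40 genes, read by 60 probes, were bright enough to be tested, of 14396 genes tested in all. Actl6b, Cbx7 and Dpf3 were measured but not tested, because they were not well above background on both arrays of any group. Kmt2a and Chd7 are not analysed here.

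The cells were mouse epiblast stem cells (EpiSCs) of strain 129/Sv, a pluripotent cell type that resembles the epiblast of the implanted embryo. The EpiSC group stayed in the epiblastic maintenance condition, the NPC1 group spent 1 day in a neural plate developmental condition, and the NPC2 group spent 2 days in it. Each group held 2 cultures, A and B, and all came from the same seed culture, so p-values measure only the spread between sister cultures of 1 line. Total RNA of each culture was hybridised to its own 1-colour Agilent array, and all 6 arrays lay on 1 slide with 1 scan time.

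Polycomb complexes keep developmental genes silent. PRC2 methylates the tail of histone H3, PRC1 places ubiquitin on histone H2A, and CBX proteins of PRC1 bind the methyl mark that PRC2 leaves. Trithorax-group methyltransferases and the ATP-driven BAF complex oppose this silencing. BAF is built from families of interchangeable paralogues, and pluripotent cells, neural progenitors and neurons are known to hold different members of the same families.

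Marker genes were read first, as a check of the labels. Pou5f1, a core pluripotency factor, fell by 2.66 ± 0.0753 (SE) on the log2 scale after 2 days (adjusted p = 1.55e-05 in limma, Benjamini-Hochberg over all genes tested), and Sox1, a neural plate factor, rose by 5.72 ± 0.0573 (adjusted p = 5.33e-06); the Sox1 change was 3.77 when all its probes were averaged. All 8 neural plate markers rose after 2 days, and 6 of 8 epiblast markers fell while Nanog and Otx2 rose. The summed signal of the neural plate markers, as a multiple of each array's 75th percentile signal, was 23.5 and 24.4 in EpiSC A and B, 29.4 and 30.0 in NPC1, and 61.3 and 60.3 in NPC2. That of the epiblast markers was 448 and 459, then 319 and 326, then 162 and 160. Of other cell types, 6 of 7 primitive streak and mesoderm markers and 4 of 4 tested endoderm markers fell after 2 days, with sums of 8.51 and 8.11 (streak) and 5.44 and 5.25 (endoderm) in EpiSC, 1.42 and 1.47 and 0.361 and 0.421 in NPC1, and 0.713 and 0.776 and 1.34 and 1.503 in NPC2. Gata4, Ttr and Lum were not well above background on both arrays of any group. Neuron markers were mixed after 2 days (4 higher, 2 lower of 9), while after 1 day 6 were higher and 1 lower. Their summed signals were 20.6 and 20.7 in EpiSC, 33.6 and 32.1 in NPC1 and 25.4 and 25.3 in NPC2. Fibroblast and feeder markers were also mixed after 2 days (4 higher, 2 lower of 8 tested). Their sums were 7.28 and 7.66 in EpiSC, 9.84 and 9.496 in NPC1, and 12.2 and 11.6 in NPC2. The part of these cell types in the results below was not tested. In such bulk RNA a change in the share of a cell type cannot be told apart from a change in RNA per cell. Actb changed by -0.20 ± 0.0515 after 2 days (adjusted p = 0.0197), but by 0.02 in the deposited value table (adjusted p = 0.73), and Gapdh did not pass the test (-0.06 ± 0.0571, adjusted p = 0.39).

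After 2 days in the neural plate condition 16 of the 40 tested genes rose and 13 fell. Those that rose by at least 1.5-fold were Cbx8, Smarca2, Smarcd3, Bmi1, Cbx2, Ezh1, Smarcc2 and Ring1. Those that fell by at least 1.5-fold were Phc1, Phf19, Pcgf5, Dpf1, Suz12 and Cbx6. Over the alternatives listed with the processing, the smallest changes of Suz12 and Cbx6 were -0.52 and -0.49 on the log2 scale, under 1.5-fold. After 1 day 12 genes rose and 12 fell, and the 5 that moved by at least 1.5-fold all rose: Cbx8, Smarca2, Smarcd3, Ezh1 and Bmi1. Cbx8 was not well above background in EpiSC and entered the test only through the groups where it was high. The counts and shares given here include it. With signal above background asked for on all 6 arrays, 4 of 39 genes moved by at least 1.5-fold after 1 day and 13 after 2 days. Over all 13241 genes then tested, 2155 and 4368 did. The 9 genes Chd4, Kmt2d, Mtf2, Pbrm1, Pcgf1, Smarca4, Smarcb1, Smarcd1 and Smarcd2 passed in none of the 3 comparisons.

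The same counts were taken over all genes tested, and no difference between the shares was tested. After 2 days 40% of the genes were higher and 32.5% lower, against 28.3% and 41.2% of all genes tested. At 1.5-fold and above the shares were 20% higher and 15% lower, against 16.3% and 19.2%. After 1 day 30% were higher and 30% lower, against 21.5% and 29.2% of all genes, and at 1.5-fold or more 12.5% were higher and 0% lower, against 9.72% and 8.36%. Between day 1 and day 2, 37.5% rose and 20% fell, against 20.9% and 27.2% of all genes; 15% rose and 10% fell by at least 1.5-fold, against 9% and 11.8%. The median log2 change of the 40 genes was -0.02 after 1 day and 0.02 after 2 days, and -0.05 and -0.10 over all genes tested. Counted either way, 60%, 72.5% and 57.5% of the 40 genes passed after 1 day, after 2 days and between the days, against 50.7%, 69.5% and 48.1% of all genes, and 12.5%, 35% and 25% passed at 1.5-fold or more, against 18.1%, 35.5% and 20.8%. The 3 comparisons share arrays and are not independent of each other. The split moved with the scaling. Of the called genes, 50% were higher after 1 day and 55.2% after 2 days, against 36.4% and 45.5% under median scaling, 63.6% and 65.5% after quantile normalization, and 68.4% and 67.7% in the deposited value table. Over all genes the share of higher calls moved likewise, from 42.4% and 40.7% to 28.3% and 33.1%, 52.1% and 50.7%, and 61.7% and 60.9%. Between day 1 and day 2 it was 65.2% for the 40 genes, and 76% in the value table, against 43.4% and 59% of all called genes. The value table shifted the median change of all genes by 0.12 after 1 day, 0.22 after 2 days and 0.10 between the days, quantile normalization by 0.10 after 2 days, and median scaling by -0.11 after 1 day. The day 1 count of 12 lower genes became smaller with either EpiSC array left out, and so did the 4202 lower calls over all genes. Such a fit has fewer degrees of freedom, and a lost call need not mean a smaller change. For example, the day 1 change of Cbx6 was -0.247, and -0.252 and -0.241 without EpiSC culture A and B. That of Actl6a was -0.256, and -0.25 and -0.262.

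**Figure D1:**
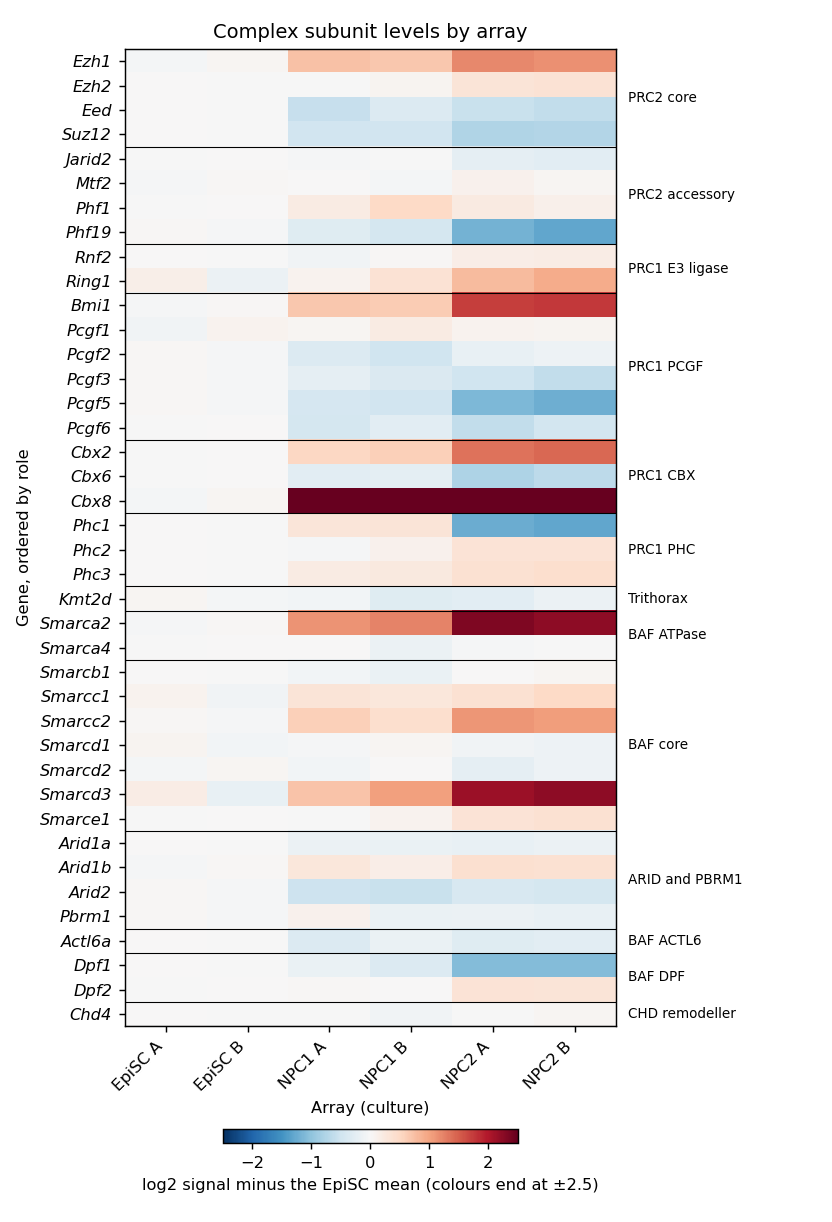
Log2 signal of each tested gene on each of the 6 arrays (columns), minus the mean of its EpiSC arrays, with genes (rows) ordered by role. Red is above and blue below the EpiSC mean, and colours end at 2.5 either way. The 2 arrays of a group look alike in nearly every row, and the deepest colours are in NPC2.

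**Figure D2:**
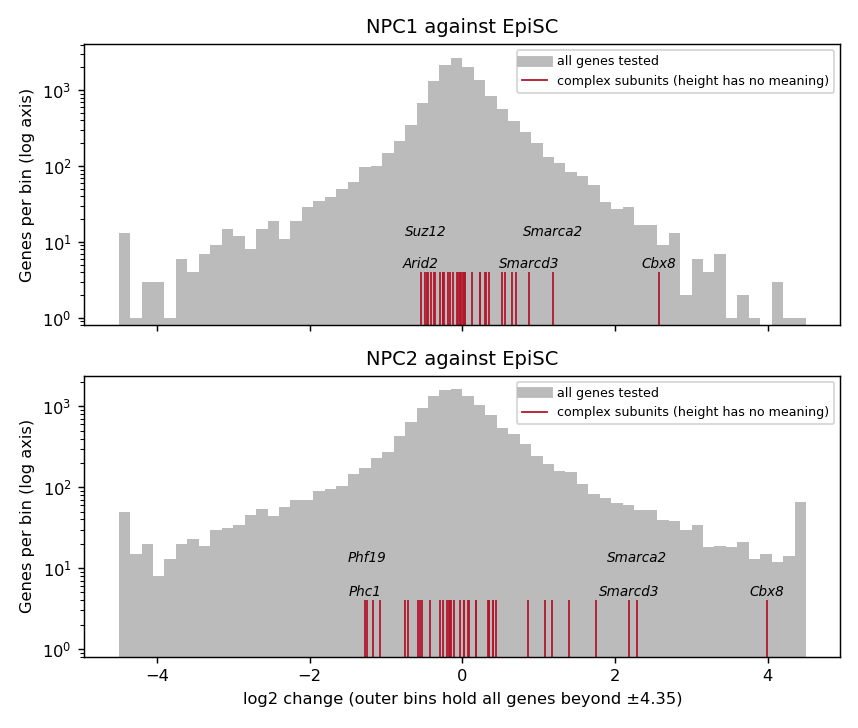
Number of genes (log axis) by log2 change against EpiSC for all 14396 genes tested (grey), with the 40 complex subunits as red lines, after 1 day (top) and 2 days (bottom). The subunits spread over the range of the other genes, with Cbx8, Smarca2 and Smarcd3 highest among them and Phc1 and Phf19 lowest after 2 days; the Cbx8 lines rest on EpiSC signals not well above background.

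The promoters of the 4 genes with the largest rises and the 2 with the largest falls after 2 days are shown to let the regulatory sequence be read beside the values. Each is the 250 bases before the start of transcription, from RefSeq on build GRCm38.p6, written 5′ to 3′ on the gene's strand. Capitals mark a match, on either strand, to one of 7 short motifs. The E-box is CACGTG and the GC box, known from Sp-family factors, is GGGCGG. The letters CCAAT give the CCAAT box, bound by NF-Y. The ETS core is CGGAAG. For Oct factors the octamer ATGCAAAT was searched. For TCF factors the search used CTTTGAT, and for SOX factors it used ACAATG.
Cbx8 promoter, chr11:119040914-119041163, minus strand: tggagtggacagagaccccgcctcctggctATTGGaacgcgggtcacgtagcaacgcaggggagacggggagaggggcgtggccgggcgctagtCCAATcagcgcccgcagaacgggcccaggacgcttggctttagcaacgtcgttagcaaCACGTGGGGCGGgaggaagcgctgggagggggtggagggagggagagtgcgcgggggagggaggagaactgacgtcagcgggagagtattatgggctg
Smarca2 promoter, chr19:26604910-26605159, plus strand: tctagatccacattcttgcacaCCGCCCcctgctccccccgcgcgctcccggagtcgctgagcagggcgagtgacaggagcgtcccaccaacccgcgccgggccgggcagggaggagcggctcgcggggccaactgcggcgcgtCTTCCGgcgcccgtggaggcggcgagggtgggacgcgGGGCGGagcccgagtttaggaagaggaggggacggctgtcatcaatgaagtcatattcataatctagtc
Smarcd3 promoter, chr5:24602003-24602252, minus strand: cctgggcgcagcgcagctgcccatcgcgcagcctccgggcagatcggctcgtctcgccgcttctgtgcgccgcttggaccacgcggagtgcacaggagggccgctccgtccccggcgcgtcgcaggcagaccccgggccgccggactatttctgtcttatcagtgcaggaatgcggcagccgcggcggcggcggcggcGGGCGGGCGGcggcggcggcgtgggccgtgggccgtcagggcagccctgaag
Bmi1 promoter, chr2:18676768-18677017, plus strand: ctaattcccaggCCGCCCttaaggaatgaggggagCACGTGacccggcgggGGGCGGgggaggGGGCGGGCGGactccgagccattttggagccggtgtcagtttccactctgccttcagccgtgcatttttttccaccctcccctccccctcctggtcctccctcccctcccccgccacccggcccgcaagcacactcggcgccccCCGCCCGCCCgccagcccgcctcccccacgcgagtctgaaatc
Phc1 promoter, chr6:122340228-122340477, minus strand: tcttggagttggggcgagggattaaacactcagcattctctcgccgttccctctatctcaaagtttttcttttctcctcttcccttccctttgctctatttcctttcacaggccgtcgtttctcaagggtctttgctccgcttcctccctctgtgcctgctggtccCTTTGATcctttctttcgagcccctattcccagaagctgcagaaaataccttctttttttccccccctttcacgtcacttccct
Phf19 promoter, chr2:34913977-34914226, minus strand: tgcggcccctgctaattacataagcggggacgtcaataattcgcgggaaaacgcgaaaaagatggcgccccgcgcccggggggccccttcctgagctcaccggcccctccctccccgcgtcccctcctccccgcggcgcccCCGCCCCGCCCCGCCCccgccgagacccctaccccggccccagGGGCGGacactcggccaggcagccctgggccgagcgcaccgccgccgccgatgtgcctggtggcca
The Cbx8 window held 1 E-box, 1 GC box and 2 CCAAT boxes, with the E-box and GC box next to each other. The Bmi1 window held 1 E-box and 6 GC-box matches, some of which overlap. The Smarca2 window held 2 GC boxes and 1 ETS core, the Smarcd3 window 2 overlapping GC boxes, the Phf19 window 4 GC boxes, some of which overlap, and the Phc1 window 1 TCF motif. Windows of this length were matched for 40 of the 45 listed genes (48 windows, since some genes have several starts). An E-box was found in 7 of these 48 windows (14.6%), against 6.02% of all 32851 windows in the table. A GC box was found in 36 of 48 (75%), against 32.7%, and a CCAAT box in 29.2%, against 33.8%. The ETS core was in 12.5% against 13.6%, the octamer in 2.08% against 1.6%, the TCF motif in 4.17% against 3.21% and the SOX core in 2.08% against 10.7%. The median window held 22 CG dinucleotides among the listed genes and 6 in the whole table. The whole table covers 27025 genes and was not limited to those tested here. The part of CG content in the motif shares was not tested. These matches are letters in a window and say nothing of a factor's binding.

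In the core of PRC2, Ezh1 rose, Suz12 and Eed fell, and Ezh2 rose slightly on day 2. Ezh1 and Ezh2 are the alternative methyltransferases of the complex. Signals are given as multiples of the array's 75th percentile, and levels of different probes cannot be compared. Ezh1 read 3.75 and 4.02 in EpiSC A and B, 6.46 and 6.16 in NPC1, and 8.95 and 8.58 in NPC2. The groups did not overlap, and each later day was higher than the one before. The log2 change was 0.70 ± 0.0598 after 1 day (adjusted p = 0.00103) and 1.18 ± 0.0598 after 2 days (adjusted p = 7.5e-05). Both other Ezh1 probes also rose after 2 days, by 1.39 and 1.17. Ezh2 read 11.3 and 11.1, then 11 and 11.7, then 14.0 and 14.4. EpiSC and NPC1 overlapped and NPC2 lay above both, by 0.34 ± 0.0513 against EpiSC (adjusted p = 0.00277). Suz12, the subunit on which the complex is assembled, read 7.36 and 7.30 in EpiSC, 5.25 and 5.24 in NPC1, and 4.34 and 4.40 in NPC2. It fell on both days without overlap, by 0.75 ± 0.0420 on the log2 scale after 2 days (adjusted p = 0.000101). Eed, which binds the methyl mark and stimulates the enzyme, read 34.1 and 33.2, then 22.6 and 26.5, then 22.9 and 22.1. Both neural plate groups lay below EpiSC and overlapped each other. Eed fell by 0.58 ± 0.0874 after 2 days (adjusted p = 0.00286), and by 0.32 after quantile normalization and 0.36 in the value table; its day 1 call was lost without EpiSC culture A (adjusted p = 0.0556).

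Among the accessory subunits of PRC2, Phf19 fell by more than 1.5-fold and its paralogues Mtf2 and Phf1 did not. All are Polycomb-like proteins, which help to bring PRC2 to chromatin. Phf19 read 3.09 and 2.99 in EpiSC, 2.46 and 2.24 in NPC1, and 1.34 and 1.24 in NPC2. The groups were ordered without overlap, and the log2 change after 2 days was -1.24 ± 0.0714 (adjusted p = 0.000108). Its smaller fall on day 1 (-0.38, adjusted p = 0.0109) was lost without EpiSC culture A (adjusted p = 0.0593). Whether the changes of these paralogues differ was not tested. Mtf2 read 10.07 and 10.4, then 10.3 and 9.93, then 11.1 and 10.6, with a change of 0.08 ± 0.0523 after 2 days that did not pass (adjusted p = 0.202). Mtf2 passed in the upward direction after quantile normalization (0.30, adjusted p = 0.00682) and in the value table (0.31, adjusted p = 0.00517). Phf1 read 0.399 and 0.402, then 0.462 and 0.568, then 0.471 and 0.438. Its rise on day 1 (0.36 ± 0.108, adjusted p = 0.0456) was lost when any of 5 single arrays was left out, those being all but NPC1 A, and on day 2 it did not pass (0.18, adjusted p = 0.193), except as higher in the value table (0.40, adjusted p = 0.0173) and without either NPC1 culture (adjusted p = 0.0474). Jarid2, a cofactor related to histone demethylases but without their activity, read 8.18 and 8.39, then 8.12 and 8.17, then 7.10 and 6.86. NPC2 lay below both other groups (-0.25 ± 0.0458 against EpiSC, adjusted p = 0.00612), a call that ended after quantile normalization (-0.03, adjusted p = 0.564) and in the value table (-0.02, adjusted p = 0.632).

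Of the paired E3 ligases of PRC1, Ring1 rose on day 2. Ring1 read 0.333 and 0.273 in EpiSC, 0.322 and 0.386 in NPC1, and 0.519 and 0.575 in NPC2. EpiSC and NPC1 overlapped, and NPC2 lay above both. The change was 0.86 ± 0.138 against EpiSC (adjusted p = 0.0037) and 0.63 ± 0.138 against NPC1 (adjusted p = 0.0173). The step from day 1 to day 2 was lost without NPC1 culture A (adjusted p = 0.0686) or NPC2 culture B (adjusted p = 0.0829). Rnf2, its paralogue, read 4.74 and 4.72, then 4.42 and 4.85, then 5.30 and 5.40. Its rise of 0.18 ± 0.0599 (adjusted p = 0.0473) was lost without any 1 of the EpiSC or NPC2 cultures, with adjusted p from 0.115 to 0.161, and after median scaling (adjusted p = 0.345).

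The PCGF proteins pair with these ligases and define the kinds of PRC1. Bmi1 rose, while Pcgf3, Pcgf5 and Pcgf6 fell. Bmi1 and Pcgf2 belong to the canonical complex with CBX and PHC proteins, and the others to variant complexes. Bmi1 read 0.370 and 0.382 in EpiSC, 0.600 and 0.583 in NPC1, and 1.25 and 1.28 in NPC2. The 3 groups did not overlap. Bmi1 rose by 0.65 ± 0.0476 after 1 day (adjusted p = 0.000661) and 1.75 ± 0.0476 after 2 days (adjusted p = 1.39e-05), and its second probe rose by 2.05. Its paralogue Pcgf2 read 1.26 and 1.21, then 0.975 and 0.875, then 1.09 and 1.13. It was lowest in NPC1 (-0.42 ± 0.0687 against EpiSC, adjusted p = 0.0071), and NPC2 did not pass against EpiSC (-0.15, adjusted p = 0.102) except after median scaling (-0.25, adjusted p = 0.0211). From day 1 to day 2 Pcgf2 rose by 0.26 ± 0.0687 (adjusted p = 0.0302), a call lost without any 1 array other than NPC1 A (adjusted p from 0.058 to 0.124). Pcgf5 read 3.22 and 3.11 in EpiSC, 2.36 and 2.27 in NPC1, and 1.45 and 1.35 in NPC2. It fell in steps without overlap, to -1.17 ± 0.0575 after 2 days (adjusted p = 6.67e-05), and its second probe gave -1.16. Its paralogue Pcgf3 read 0.193 and 0.185, then 0.162 and 0.147, then 0.134 and 0.123, a fall of 0.56 ± 0.0746 after 2 days (adjusted p = 0.00191). Pcgf6 read 5.43 and 5.51, then 4.01 and 4.55, then 3.58 and 3.99, with both neural plate groups below EpiSC. It fell by 0.53 ± 0.0874 after 2 days (adjusted p = 0.00395). The day 1 falls of Pcgf3 and Pcgf6 were lost without EpiSC A or EpiSC B, and also without NPC1 B for Pcgf3 and NPC1 A for Pcgf6 (adjusted p from 0.078 to 0.118). Pcgf1 did not pass (0.07 ± 0.0884 after 2 days, adjusted p = 0.504), except in the value table, where it was 0.29 higher (adjusted p = 0.0222).

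**Figure D3:**
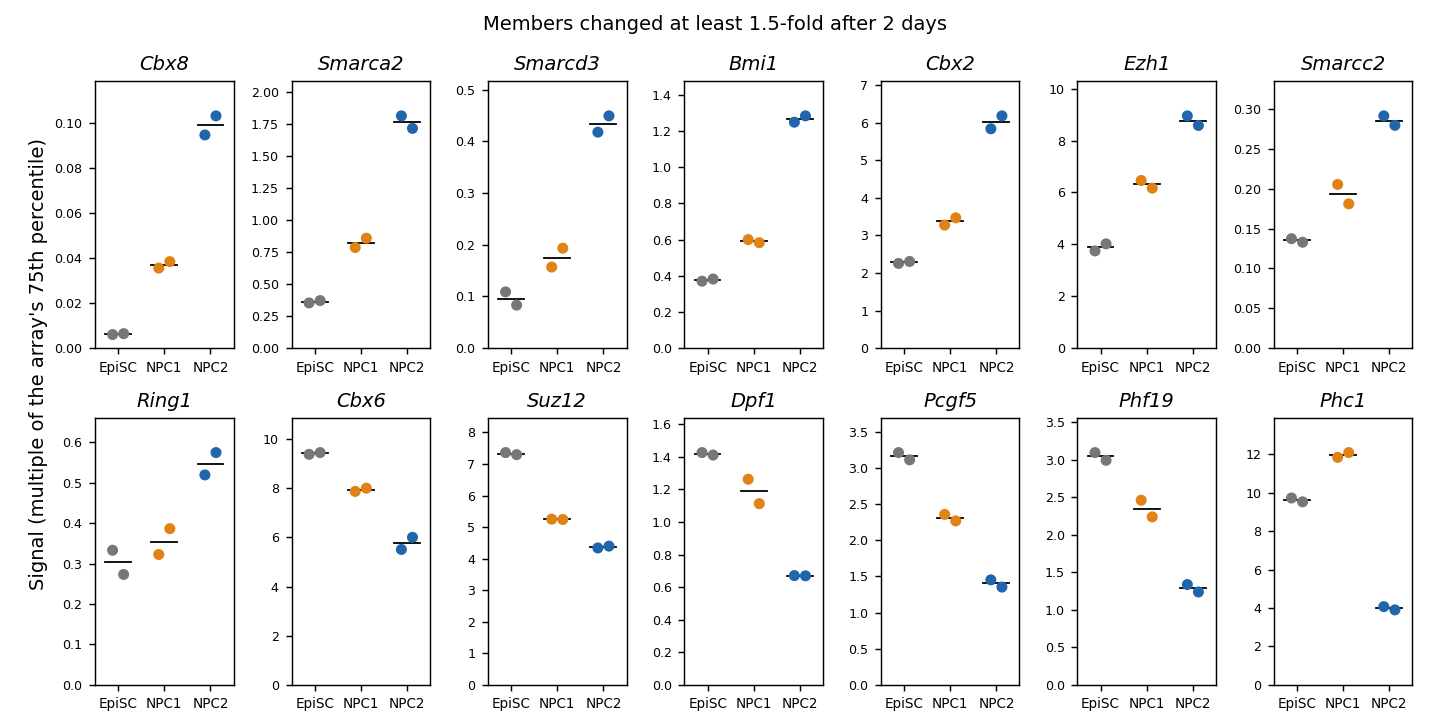
Signal of the 14 genes changed by at least 1.5-fold after 2 days, as a multiple of each array's 75th percentile (vertical axes, each from 0 and with its own scale), on the EpiSC, NPC1 and NPC2 arrays. Points are single cultures and bars their mean. The pair of cultures of a group lie close together, Phc1 is highest in NPC1, and the EpiSC points of Cbx8 were not well above background.

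The CBX proteins, which read the methyl mark for canonical PRC1, moved in both directions. Cbx8 was not well above background in EpiSC, at 0.00602 and 0.00641, and was measured on the 4 other arrays, at 0.0355 and 0.0384 in NPC1 and 0.0945 and 0.103 in NPC2. Its NPC2 level was at least 4.37-fold higher than in EpiSC, and its NPC1 level at least 1.63-fold higher. The adjusted p of 7.77e-06 and 7.81e-05 belong to the measured signals, not well above background in EpiSC, and do not test these bounds. Cbx8 entered the test only through the groups where it was high. Such a bound sets the bright group's mean against, on each dim array, the higher of the probe's own signal and the lowest signal of any probe well above background. Between day 1 and day 2, where both sides were measured, Cbx8 rose by 1.42 ± 0.0734 (adjusted p = 0.000195), or by 0.37 after normexp background correction, which raises low signals. With that correction its changes against EpiSC were 0.26 after 1 day and 0.64 after 2 days on the log2 scale, smaller than the bounds. Cbx2 read 2.25 and 2.30 in EpiSC, 3.27 and 3.46 in NPC1, and 5.83 and 6.18 in NPC2. It rose on both days with no overlap, by 0.56 ± 0.0566 (adjusted p = 0.00161) and then 1.40 ± 0.0566 against EpiSC (adjusted p = 3.87e-05). Cbx6 went the other way, reading 9.38 and 9.45, then 7.87 and 8.001, then 5.51 and 6.002. Its fall after 2 days was 0.71 ± 0.0578 on the log2 scale (adjusted p = 0.00033), and both other probes gave larger falls (-0.88 and -0.83). Its day 1 fall (-0.25) was lost without any 1 of the EpiSC or NPC1 cultures (adjusted p from 0.0586 to 0.0945). Cbx7 was well above background on 0 of the 6 arrays.

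The PHC proteins join PRC1 complexes into larger assemblies, and Phc1 was called higher than EpiSC on day 1 and lower on day 2. Phc1 read 9.73 and 9.53 in EpiSC, 11.8 and 12.1 in NPC1, and 4.07 and 3.90 in NPC2. NPC1 lay above and NPC2 below EpiSC, with no overlap. The change was 0.31 ± 0.0476 after 1 day (adjusted p = 0.00542) and -1.27 ± 0.0476 after 2 days (adjusted p = 3.15e-05), and the step between the days was -1.59 ± 0.0476 (adjusted p = 6.41e-05). Phc2 read 23.2 and 22.6, then 22.5 and 24.6, then 29.1 and 29.0, and rose by 0.34 ± 0.0581 after 2 days (adjusted p = 0.00436). Phc3 read 0.432 and 0.427, then 0.496 and 0.512, then 0.557 and 0.575, and rose by 0.40 ± 0.0464 after 2 days (adjusted p = 0.00117). Both paralogues of Phc1 were thus highest in NPC2, where Phc1 was lowest. The day 1 rise of Phc3 (0.23) was lost without either EpiSC culture, at adjusted p 0.0618 and 0.0742.

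Kmt2d, the Trithorax-group methyltransferase of enhancers, did not pass in any comparison (-0.20 ± 0.0967 after 2 days, adjusted p = 0.121). It read 0.407 and 0.379, then 0.372 and 0.318, then 0.328 and 0.355, and NPC1 and NPC2 overlapped. Under median scaling it passed as lower on both days (-0.30 and -0.30, adjusted p 0.0468 and 0.0363). The other Kmt2d probes gave -0.20 (adjusted p = 0.431) and, with the opposite sign, 0.25 (adjusted p = 0.145) after 2 days. Chd4, the ATPase of the NuRD repressor complex, read 84.2 and 82.5, then 82.6 and 78.2, then 82.6 and 86.0, with overlap between NPC2 and EpiSC and a change of 0.02 ± 0.0525 (adjusted p = 0.803). Chd4 passed as higher after quantile normalization (0.26, adjusted p = 0.0162) and in the value table (0.24, adjusted p = 0.0181).

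Of the alternative ATPases of BAF, Smarca2 rose on both days. Smarca2 (BRM) read 0.353 and 0.371 in EpiSC, 0.786 and 0.859 in NPC1, and 1.81 and 1.72 in NPC2. The 3 groups were separate, and the level rose 2.27-fold after 1 day and 4.87-fold after 2 days. On the log2 scale these changes were 1.18 ± 0.0676 (adjusted p = 0.000356) and 2.29 ± 0.0676 (adjusted p = 1.73e-05). Smarca4 (BRG1) read 87.1 and 87.4, then 87.8 and 78.6, then 85.0 and 86.3. Its NPC1 arrays lay on either side of EpiSC, and its change after 2 days was -0.03 ± 0.0662 (adjusted p = 0.732). Its second probe gave -0.12 ± 0.061 and did not pass either (adjusted p = 0.174). The difference between the changes of the ATPase pair was not tested.

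In the BAF core Smarcd3 and Smarcc2 rose by more than 1.5-fold after 2 days, beside smaller rises of Smarce1 and Smarcc1. Smarcd3 (BAF60C) read 0.109 and 0.0832 in EpiSC, 0.157 and 0.193 in NPC1, and 0.418 and 0.450 in NPC2. The groups did not overlap although the EpiSC cultures differed by 0.39 on the log2 scale, the widest gap between duplicates of the EpiSC group among the 40 genes. Smarcd3 rose by 0.87 ± 0.165 after 1 day (adjusted p = 0.0108) and 2.19 ± 0.165 after 2 days (adjusted p = 0.00026), or by 0.45 and 1.38 after normexp correction. Its paralogue Smarcd1 read 0.854 and 0.769, then 0.790 and 0.835, then 0.760 and 0.746. Smarcd2 read 2.08 and 2.25, then 2.07 and 2.18, then 1.85 and 1.99. Neither passed after 2 days (adjusted p 0.223 and 0.0705), and both passed as lower under median scaling (-0.20 and -0.27, adjusted p 0.0462 and 0.0268), as did Smarcd2 after normexp correction (-0.20, adjusted p = 0.0119). Smarcc2 (BAF170) read 0.137 and 0.133, then 0.205 and 0.181, then 0.292 and 0.280, rising on each day without overlap. Its change was 1.08 ± 0.0753 after 2 days (adjusted p = 0.0002), or 0.60 after normexp correction. Smarcc1 (BAF155), its paralogue, read 14.3 and 12.8, then 16.8 and 16.5, then 17.7 and 19.0, a change of 0.44 ± 0.0739 (adjusted p = 0.00435). That rise was seen with 1 of its 3 probes: the others gave -0.07 and 0.00 after 2 days, and the mean over probes did not pass (0.13, adjusted p = 0.079). On day 1 the mean over probes had the opposite sign (-0.01 against 0.30). Smarce1, a DNA-binding subunit, read 11 and 11, then 11 and 11.6, then 13.9 and 14.3, and rose by 0.35 ± 0.0507 after 2 days (adjusted p = 0.0024). Smarcb1, the subunit that contacts the nucleosome's acidic patch, did not pass after 2 days (0.03 ± 0.054, adjusted p = 0.674), except as higher after quantile normalization (0.30, adjusted p = 0.00954) and in the value table (0.25, adjusted p = 0.0172). After 1 day it passed only under median scaling, as lower (-0.22, adjusted p = 0.0229), and between the days it passed as higher under quantile normalization, normexp correction and the value table (adjusted p from 0.0255 to 0.0465).

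The ARID subunits separate BAF (Arid1a or Arid1b) from PBAF (Arid2 with Pbrm1), and their changes were all under 1.5-fold. Arid1b read 2.87 and 2.95, then 3.53 and 3.27, then 3.86 and 3.81, and rose by 0.40 ± 0.0564 after 2 days (adjusted p = 0.0023). The other Arid1b probes gave 0.59 (adjusted p = 0.00737) and 0.21 (adjusted p = 0.281) after 2 days. Its day 1 rise (0.22) was lost without any 1 array other than NPC1 B (adjusted p from 0.0523 to 0.118). Arid1a read 11.6 and 11.6, then 10.5 and 10.3, then 10.2 and 10.5. Its value of -0.17 ± 0.045 after 2 days (adjusted p = 0.0231) had the other sign after quantile normalization (0.05) and in the value table (0.06), so that its direction depends on the scaling, and the call was lost without any 1 of the EpiSC or NPC2 cultures (adjusted p from 0.0554 to 0.108). Arid2 read 2.57 and 2.47, then 1.75 and 1.71, then 1.91 and 1.86, with a fall of 0.42 ± 0.0481 after 2 days (adjusted p = 0.00109). A second Arid2 probe did not pass (0.09 ± 0.16, adjusted p = 0.651), and neither did the mean over probes (-0.16, adjusted p = 0.169). Pbrm1 did not pass (-0.17 ± 0.0955 after 2 days, adjusted p = 0.179), although its second probe was lower (-0.33, adjusted p = 0.0152). It passed as lower as the mean over probes (-0.25, adjusted p = 0.0171), under median scaling (-0.26, adjusted p = 0.0441) and without either NPC1 culture (adjusted p = 0.0411).

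Among subunits known for the exchange from neural progenitors to neurons, Actl6b was well above background on 0 arrays and Dpf3 on 1. Actl6a, the progenitor counterpart of Actl6b, read 14.2 and 14.0 in EpiSC, 11.1 and 12.5 in NPC1, and 11.4 and 11.7 in NPC2. Its value of -0.29 ± 0.0686 after 2 days (adjusted p = 0.0153) was lost without any 1 of the EpiSC or NPC2 cultures (adjusted p from 0.0502 to 0.072) and after quantile normalization (-0.06, adjusted p = 0.474). Dpf1, a double PHD finger protein of neuronal BAF, read 1.43 and 1.41 in EpiSC, 1.26 and 1.11 in NPC1, and 0.671 and 0.669 in NPC2. It fell by 1.08 ± 0.0714 after 2 days (adjusted p = 0.000167), and its second probe by 1.13. Its day 1 fall (-0.26) was lost without any 1 array other than NPC1 A (adjusted p from 0.0632 to 0.124). Dpf2, its broadly expressed paralogue, read 21.8 and 22.1, then 22.3 and 22.1, then 28 and 27.3. Dpf2 was thus highest in NPC2, where Dpf1 was lowest, and its rise was 0.33 ± 0.0435 (adjusted p = 0.00178).

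**Figure D4:**
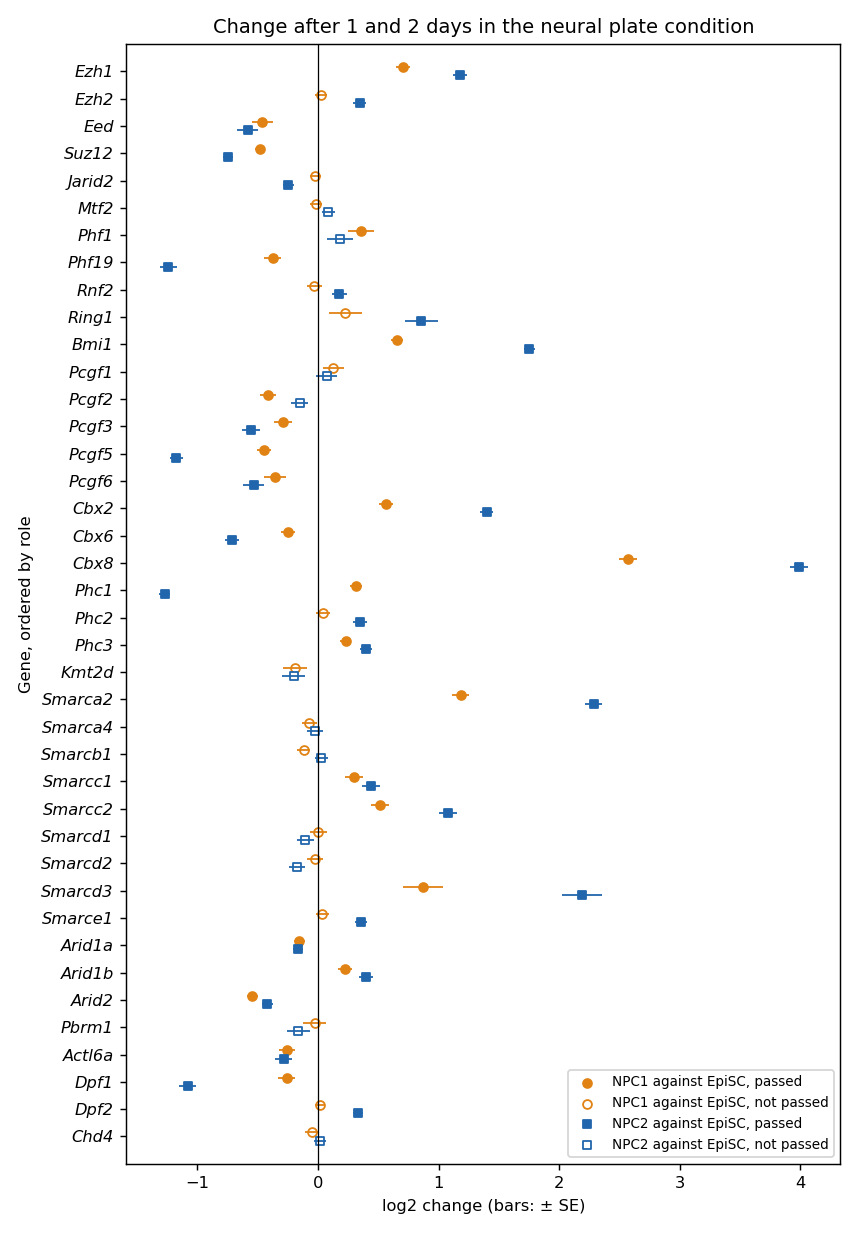
Log2 change against EpiSC with its standard error for the 40 tested genes, ordered by role, after 1 day (circles) and 2 days (squares). Filled points passed the test at an adjusted p of 0.05 and open points did not; Cbx8, Smarca2, Smarcd3 and Bmi1 lie farthest right and Phc1 and Phf19 farthest left, and the Cbx8 values rest on EpiSC signals not well above background.

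Other genes of the same complexes were counted in lists, and of each the called genes with the largest changes after 2 days are named. Beside these counts, 28.3% of all genes tested rose and 41.2% fell after 2 days. Of 12 further BAF genes 3 rose and 7 fell after 2 days. Bcl11b and Bcl11a, zinc finger proteins that join BAF, fell. Bcl11b changed by -4.91, or by -2.30 after normexp correction. Its NPC2 signals were not well above background, so the size of its fall is uncertain. The adjusted p of 1.29e-05 for Bcl11b is that of the measured signals. Bcl11a fell by 3.67 ± 0.067 (adjusted p = 7.77e-06), or by 2.36 after normexp correction. Ss18l1, known from neuronal BAF, rose by 1.70 ± 0.114 (adjusted p = 0.000177), or by 0.83 after normexp correction, and its paralogue Ss18 changed by -0.99 ± 0.080 (adjusted p = 0.00033). Of 12 further PRC1 genes 3 rose and 5 fell. Fbrsl1 rose by 0.58 ± 0.070 (adjusted p = 0.00131), and the other named ones fell: Rybp and L3mbtl2 of variant PRC1 by 0.71 ± 0.056 and 0.70 ± 0.064, and Bcor, the corepressor found with Pcgf1, by 0.69 ± 0.058; Rybp fell by 0.45 after quantile normalization. Of 5 further PRC2 genes Lcor rose (0.78 ± 0.136, or 0.34 after normexp correction), Aebp2 and Rbbp7 fell (-0.56 ± 0.079 and -0.41 ± 0.050), and 2 did not pass.

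Of 9 genes of the PR-DUB complex, which removes ubiquitin from histone H2A, 3 rose and 3 fell after 2 days. Mbd5 rose by 0.87 ± 0.137 and Asxl1 by 0.31 ± 0.061. Foxk2 changed by -0.32 ± 0.047 and Asxl2 by -0.32 ± 0.096, and both calls ended in the value table (adjusted p 0.137 and 0.428); that of Asxl2 was also lost without EpiSC A, EpiSC B or NPC2 A (adjusted p from 0.0619 to 0.135). Of 19 further COMPASS, Trithorax and demethylase genes 4 rose, 2 of them by at least 1.5-fold, and 10 fell, none by that much. Of all genes tested 28.3% rose and 41.2% fell, and 16.3% and 19.2% did so by at least 1.5-fold. Ncoa6, a partner of Kmt2d, rose by 0.60 ± 0.053, and Dpy30, a shared COMPASS subunit, fell by 0.58 ± 0.063. Ash1l rose by 0.59 ± 0.127, a call lost without NPC2 culture B (0.54). Kdm6b, a demethylase that erases the PRC2 mark, changed by -0.41 ± 0.088, a call lost without EpiSC B or NPC2 B (-0.35 and -0.39). The Kdm6b call also ended in the value table (-0.19, adjusted p = 0.124) and after quantile normalization (-0.25, adjusted p = 0.0632).

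Of 17 further CHD and NuRD genes 3 rose and 8 fell after 2 days. Mbd2, which binds methylated DNA, fell by 1.96 ± 0.053, or by 1.23 as a mean of its probes, and Chd9 fell by 1.46 ± 0.055. Chd3, the paralogue of Chd4 in NuRD, rose by 1.00 ± 0.048, and Mta3, another NuRD subunit, fell by 1.00 ± 0.043. Of 12 ISWI and INO80 genes 2 rose and 6 fell. Smarca1, an ISWI ATPase, and its partner Cecr2 rose by 1.11 ± 0.108 and 1.16 ± 0.105, while Baz1a, which pairs with the other ISWI ATPase, fell by 1.63 ± 0.044 and Ruvbl1 by 0.50 ± 0.050. For comparison, 28.3% of all genes tested rose and 41.2% fell in this comparison. The named genes in these last lists all passed with adjusted p of 0.0318 or less.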

How the data were processed

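Per the labels' protocols, Cy3-labelled RNA from 6 mouse EpiSC cultures was hybridised to 1-colour arrays. Per the file headers, Agilent Feature Extraction 10.10.1.1 gave every spot a linear intensity, corrected for background inside the array and with no scaling across arrays. In the deposited value table the authors give this intensity times 1 constant per array (2.10 to 2.41), linear and uncentred; no source used here states the origin of the constant. Of 59305 non-control spots per array, 58.2% to 61.1% were well above background and 0 were saturated. Duplicates correlated at 0.9972 to 0.9976 across the 14396 genes tested, with 1 probe per gene.

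From the intensity, log2 values were taken relative to the 75th percentile of each array, leaving out control and outlier spots and averaging repeat spots. Names came from RefSeq mRNA accessions (25934 of 26430 probes matched 1 symbol; assembly GRCm38.p6). A probe had to be well above background on the 2 arrays of some group, and the brightest such probe stood for its gene; 15 of the complex genes had several. Testing used limma 3.58.1 (R 4.3.3; 1 two-sided eBayes fit over 6 arrays and 3 groups, 3 residual degrees of freedom), with Benjamini-Hochberg adjustment over 14396 genes at 0.05. The number of arrays limits the precision: the median standard error was 0.0676. Values of further probes come from the same model over 33532 probes. The procedure was tested on simulated data: it missed the first target for the share of changed genes recovered, which was then lowered with the fit left as it was, and smaller changes were recovered less often than larger ones. The 14 alternatives were median scaling, quantile normalization, normexp (offset 50, on median signals), the value table, 2 other filters, probe means, a replicate block, and leaving out each of the 6 arrays.

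All 45 listed genes are accounted for. Of the further lists, 4 genes without a matched probe are not analysed here, and 1 other gene is not reported here. Genes changed at least 1.5-fold and their paralogues are given in full, and of each further list the 4 called genes with the largest change after 2 days are named, with Pou5f1, Sox1, Actb and Gapdh always. The genes and lists were chosen with earlier results of these data known. Unmatched per-sample columns numbered 0.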

Additional observations from a re-analysis of the deposited data

How the results depend on the processing

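Counts of called genes moved by over 1.5 times in 1 comparison. After 1 day the 12 lower genes became 6 in the deposited value table and 7 without the filter on dim probes, and 4 to 9 when each array was left out in turn; over all genes, 4202 lower calls became 2692 in the value table, 3390 (of 19576 genes) without the filter, and 2520 to 3802 without single arrays. The 5 genes changed at least 1.5-fold after 1 day became 2 after normexp correction (over all genes 2602 became 1498) and 5 to 6 without single arrays. Leaving out single arrays gave 8 to 10 higher genes after 1 day; 15 to 17 higher, 11 to 14 lower and 14 to 16 changed at least 1.5-fold after 2 days; and 10 to 13, 6 to 9 and 10 between the days. Of the called genes, 11 of 24 after 1 day, 23 of 29 after 2 days and 16 of 23 between the days passed in the same direction in each of the alternatives that could be run; Cbx8 was left out of the alternative that asks for signal above background on all 6 arrays. The share of all called genes kept in this way was not counted, so these numbers do not set the listed genes apart from others. A fit with 1 array left out assumes that the lone array varies like the other groups.

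The sign turned for Arid1a after 2 days (0.05 after quantile normalization and 0.0566 in the value table, against -0.17), for Actb after 2 days (0.0235 in the value table, against -0.20), and for Smarcc1 after 1 day (-0.00813 as the mean of its probes, against 0.30). Normexp correction, which adds 50 to each signal, also lowered the fall of Bcl11b after 2 days to -2.30. The cause was not tested in any of these cases. The alternatives for genes outside the list were added after the data were seen.

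Arrays of the same letter showed no shared deviation: deviations from group means correlated at 0.0028, 0.0050 and -0.044 between groups. Whether the A and B cultures were set up as pairs cannot be told from these values. With the replicate block 11 genes were higher, 11 lower and 5 changed at least 1.5-fold after 1 day. These numbers were 15, 14 and 14 after 2 days, and 13, 8 and 10 between the days. Over all 14396 genes tested, 2596, 5103 and 2995 changed at least 1.5-fold with the block, against 2602, 5110 and 2994 without it. In each of the 3 comparisons 38 of 40 genes kept their side of the threshold, which was not counted over all genes. The block ended the day 1 calls of Arid1a and Phf1, the calls of Rnf2 after 2 days and between the days and the call of Phc3 between the days, and it added Smarcd2 as lower after 2 days. Among the named genes outside the list it ended the call of Asxl2 after 2 days.

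With 2 arrays a group and sister cultures, the spread between independent cultures is unknown. Signals not well above background set only bounds for Cbx8 in EpiSC, and they leave the size of the Bcl11b fall in NPC2 uncertain.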
